A study of Mus musculus with 5 samples.

Results

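The study's atlas of the mouse central amygdala (CeA) contained GABAergic clusters marked by Nkx2-1 and named basolateral amygdala (BLA) interneurons. Here 175 nuclei that met a gate for such cells were described, and they were not matched to the study's clusters. The gate was applied to nuclei with 500 to 8000 detected genes and mitochondrial transcripts under 0.8% of their unique molecular identifiers (UMIs, each standing for 1 captured transcript). A nucleus entered when it carried a Gad1 or Gad2 UMI, no UMI of Slc17a7 (the vesicular glutamate transporter of excitatory neurons), at least 15 Il1rapl2 UMIs per 10,000 of its own UMIs (p10k), and at least 1 UMI of Nkx2-1, Lhx6 or Nxph1. Of 23839 barcodes, 7161 were within the bounds, 5966 of these were inhibitory without Slc17a7, and the 175 gated nuclei were 2.44% of the nuclei within the bounds. In the study Il1rapl2, together with Tafa1, marked a different cluster, the largest of the medial CeA. The gate was set on measured values, so the levels of its genes are descriptive. Il1rapl2, Nkx2-1, Lhx6, Nxph1, Gad1, Gad2 and Slc17a7 were left out of every test. Mitochondrial genes, whose share bounded the nuclei, stayed in the tests, and their values are descriptive too.

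Nuclei came from 5 droplet libraries of microdissected CeA from mice of the C57BL6 strain, each a pool of tissue from 1 male and 1 female. Fed libraries 1 and 2 were from untreated 8-week-old mice, and fed library 3 from 12-week-old Htr2a-Cre mice, which carry Cre recombinase under Htr2a regulatory sequence on a bacterial artificial chromosome and had received a virus (AAV-DIO-mCherry) that expresses mCherry only where Cre is active. Fasted libraries 1 and 2 were from 8-week-old mice deprived of food for 20 and 21 h. The fed state therefore rests on 3 and the fasted state on 2 libraries, and genotype, virus and age differ between fed library 3 and the rest.

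Cortical and BLA interneurons of this kind arise in the medial ganglionic eminence of the embryo, where the homeobox factor Nkx2-1 switches on Lhx6, and Lhx6 acts upstream of Sox6 and Satb1. Their adult classes are named for the peptide somatostatin (Sst), released onto distal dendrites, or for the calcium buffer parvalbumin (Pvalb), found in fast-spiking cells that inhibit the soma. CeA neurons by contrast are mostly striatal-like projection neurons of other ganglionic eminence domains, with Meis2, Foxp2 or Isl1. On GRCm39, the build of the reference named in the study's methods, the gate genes were Il1rapl2 (chromosome X, 136471357 to 137749670), a synaptic adhesion protein of the interleukin-1 receptor family; Nkx2-1 (chromosome 12, 56578742 to 56583722); Lhx6 (chromosome 2, 35971964 to 35995601); and Nxph1 (chromosome 6, 8948431 to 9249616), a secreted neurexin ligand. Sst lies on chromosome 16 (23707321 to 23711733), Pvalb on chromosome 15 (78075314 to 78091149) and Sox6 on chromosome 7 (115070106 to 115638860). Intronic reads were counted, so long genes collect more UMIs than short genes, and levels were compared between samples of nuclei and not between genes.

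The gated nuclei did not form 1 population. Sox6, which the gate did not use, split them into 122 nuclei with at least 1 p10k and 53 nuclei below 0.5 p10k. None lay between, and 46 of the 53 had no Sox6 UMI. The gap depends in part on depth, since 1 Sox6 UMI places a shallow nucleus above it and a deep nucleus below it. In fed library 2, a nucleus of 7303 UMIs was positive on 1 Sox6 UMI, with 7 Tafa1 and 7 Meis2 UMIs. A nucleus of 43895 UMIs in that library had 2 Sox6 UMIs and was negative. Of the 122 Sox6-positive nuclei, 91 carried a UMI of Lhx6 or Nkx2-1, and among the 53 Sox6-negative nuclei 6 did, while 47 had passed through Nxph1 alone. The gate used these 3 genes, so their counts describe how the nuclei entered and are no check of the label. A Meis2 UMI was found in 42 and a Tafa1 UMI in 28 of the Sox6-negative nuclei (median 21211 UMIs), and in 61 and 21 of the Sox6-positive nuclei (median 12657 UMIs). After thinning each nucleus to 4000 UMIs, Meis2 was in 53.1% of 49 Sox6-negative and 27.6% of 116 Sox6-positive nuclei, and Tafa1 in 44.9% and 12.1%. In 214 glial nuclei (nuclei without Gad1, Gad2 or Slc17a7 and with at least 5 UMIs of astrocyte or oligodendrocyte markers) these thinned shares were 70.6% and 28.0%, so the Meis2 share was no higher in the Sox6-negative than in the glial nuclei. Sox6 does not by itself mark interneurons either, since 70.1% of the thinned glial nuclei carried it, as 84.6% did Erbb4. The whole gated set is therefore called gated nuclei below, and values of the Sox6-positive nuclei are given for some of the genes that differed. Since this bound was set in a gap seen in these nuclei, differences between the Sox6-positive and Sox6-negative nuclei are given as values with no test.

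**Figure D1:**
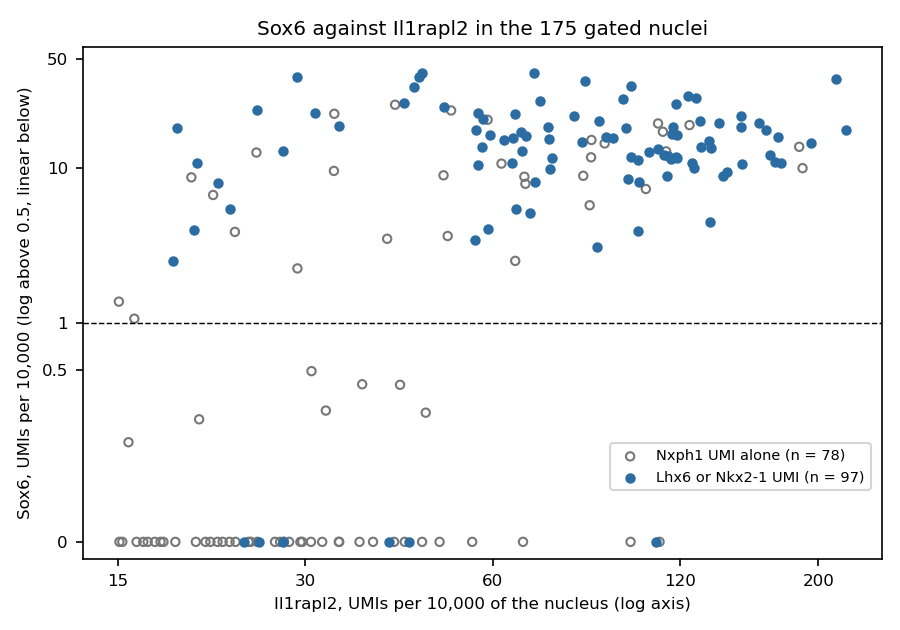
Each point is 1 of the 175 gated nuclei, with Il1rapl2 on the horizontal axis (UMIs per 10,000 of the nucleus, log axis) and Sox6 on the vertical axis (UMIs per 10,000, log above 0.5 and linear below). Filled points carry a Lhx6 or Nkx2-1 UMI (n = 97), open points Nxph1 alone (n = 78), and the dashed line marks Sox6 at 1 per 10,000, above which 122 nuclei lie.

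The gate rested mostly on Nxph1. A Nxph1 UMI was present in 168 of the 175 gated nuclei, a Lhx6 UMI in 83 and a Nkx2-1 UMI in 57, while 42 nuclei had all 3. For 27 nuclei a single UMI of these genes decided entry, and in 23 of them it was Nxph1. A Nxph1 UMI was also found in 27.6% of the other inhibitory nuclei and in 23.9% of 515 glial nuclei. After thinning each nucleus to 4000 UMIs the share with Nxph1 was 97.4% of 116 Sox6-positive, 42.9% of 49 Sox6-negative, 14.3% of 5459 other inhibitory and 31.3% of 214 glial nuclei. Whether glial Nxph1 UMIs came from the nuclei or from background RNA was not tested. Without thinning the median depth was 2417 to 4376 UMIs in the glial and 7001 to 17628.5 UMIs in the other inhibitory nuclei, by library. Lhx6 was detected in 0.194% and Nkx2-1 in 0.971% of glial nuclei. The 5 candidates lost to a Slc17a7 UMI and 60 inhibitory nuclei with enough Il1rapl2 but none of the 3 genes stayed outside. Conversely 105 inhibitory nuclei had a Nkx2-1 UMI and 259 a Lhx6 UMI, of which 57 and 83 were gated.

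Il1rapl2 ranged from 15.1 to 221 p10k in the gated nuclei (median 59.5), with a median of 83.7 in the Sox6-positive and 27.7 in the Sox6-negative nuclei. The 10 nuclei just inside the threshold had 15.1 to 17.6 p10k, and 3 of them carried Sox6, none Lhx6 or Nkx2-1, and 8 Tafa1. The 10 just outside had 13.2 to 14.98 p10k, and 6 carried Sox6, 2 Lhx6 or Nkx2-1, and 8 Tafa1. Tafa1 was thus equally frequent on both sides of the threshold. From 60 to 100 p10k, 35 of 37 nuclei carried Sox6, and above that 48 of 50 did.

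The gated nuclei were found in every library, at 1.82% to 3.90% of inhibitory nuclei. There were 17 in fed library 1 (1.82%, exact 95% binomial interval 1.06 to 2.89), 33 in fed library 2 (3.90%, 2.70 to 5.43) and 36 in fed library 3 (2.76%, 1.94 to 3.80). Fasted library 1 held 32 (2.36%, 1.62 to 3.31) and fasted library 2 held 57 (3.75%, 2.85 to 4.83). The groups overlapped: the highest and the lowest share were both in fed libraries. The mean was 2.83% ± 1.04 (SD, n = 3) in fed and 3.05% ± 0.982 (SD, n = 2) in fasted libraries, a difference of 0.226 percentage points (exact two-sided permutation test, p = 0.8; 10 splits, smallest possible p 0.1). Fed and fasted library 1 were taken as a preparation pair, and fed and fasted library 2 as another; within the first pair the fasted share was higher and within the second lower, and the sign of the mean difference turned when fed library 1 or fasted library 2 was left out (-0.279 and -0.469 percentage points). Sox6-positive nuclei numbered 14, 22 and 23 in the fed and 26 and 37 in the fasted libraries. These intervals cover counting error only.

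**Figure D2:**
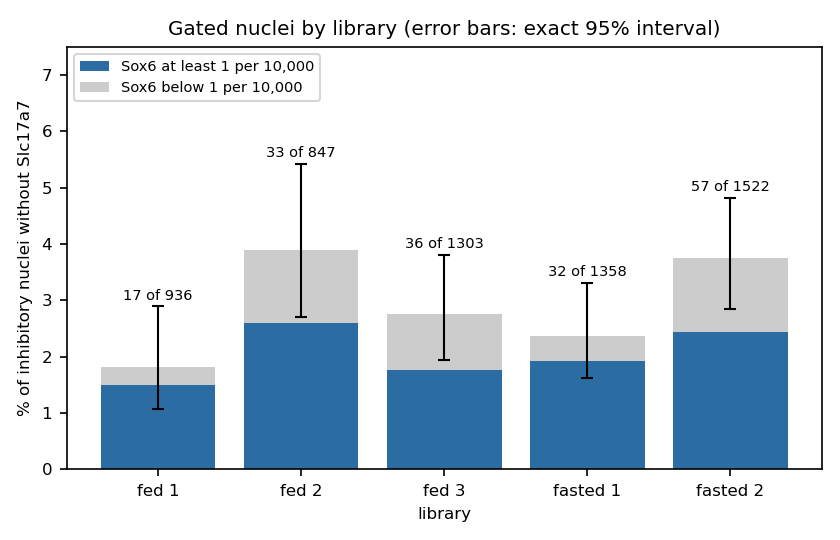
Bars give the gated nuclei as a percent of the inhibitory nuclei without Slc17a7 in each of the 5 libraries, split by Sox6, and error bars are exact 95% binomial intervals of the whole bar. The counts above the bars run from 17 of 936 in fed library 1 to 57 of 1522 in fasted library 2, and the intervals of fed and fasted libraries overlap.

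Both fasted libraries held more UMIs in total than any fed library, but in the gated nuclei libraries 1 of both states were the shallowest. Library totals were 17321997, 21286947 and 23820193 UMIs in fed libraries 1 to 3 and 29823990 and 53146326 in fasted libraries 1 and 2. The gated nuclei had a median of 7507, 15770 and 19547 UMIs in fed and 6153 and 19103 in fasted libraries, and their UMIs summed to 181107, 660468, 732701, 230579 and 1155288. Their median mitochondrial percent was 0.325, 0.0552 and 0.0748 in fed and 0.369 and 0.167 in fasted libraries. By these medians and sums the gated nuclei of libraries 1 of both states had the least depth and the highest mitochondrial share. Sums per library were expressed as counts per 1e+06 UMIs (CPM) and tested with edgeR's quasi-likelihood test with Benjamini-Hochberg adjustment, over all expressed genes of the files. Pairs of libraries shared 58 barcodes, of which 3 were within the bounds and none was gated.

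The gated nuclei stood apart from the other inhibitory nuclei of the same libraries by genes of the medial ganglionic eminence lineage. Over 11706 genes tested with library as a block, 1035 were higher (8.84%) and 1311 lower (11.2%), and these percentages are the background for each list below. The nuclei of both populations were separated by the gate, so the contrast describes how nuclei picked on a few genes differed in the rest. Of 16 lineage genes listed, 11 were tested, 9 were higher and none lower, with a median log2 fold change of 1.66 against -0.03 for all genes. The 15 lineage genes in the files, gate genes included, summed to a mean of 9742 CPM in the gated, 1201 CPM in the other inhibitory and 4142 CPM in the glial nuclei, with Erbb4 the most abundant in each. Nxph1, Lhx6 and Nkx2-1 are in these sums, so part of the gap was fixed by the gate. By Sox6, itself in the sum, the mean was 15128.5 CPM in the positive and 994 CPM in the negative gated nuclei. Sox6 stood at 955, 930 and 835 CPM in fed and 1019 and 944 CPM in fasted libraries, and at 60.9, 98.5, 78.6, 73.2 and 108 CPM in the other nuclei. The 5 gated values lay close together and far above all 5 others (log2 fold change 3.48 ± 0.11 SE, adjusted p = 9.39e-16). Maf, a transcription factor of Sst and Pvalb interneurons (4.61), Zeb2, a repressor that acts in the specification of these cells (3.65), and the neuregulin receptor gene Erbb4 (2.32) were higher too, as were Lhx8 (1.66), Dlx1 (1.25) and Satb1 (1.08), although Lhx8 and Dlx1 were not called by DESeq2 or without single libraries. Tcf4, a broadly acting helix-loop-helix factor outside the list, was at 1417 to 2442 CPM in the gated and 104 to 169 CPM in the other nuclei (3.84 ± 0.13 SE, adjusted p = 1.84e-15).

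Genes outside the lists gave the largest rises. Col19a1, a collagen that is made by interneurons, was at 359, 721 and 338 CPM in fed and 603 and 527 CPM in fasted libraries. It was at 3.84, 23.7, 6.74, 4.96 and 11.6 CPM in the other inhibitory nuclei (5.70 ± 0.18 SE, adjusted p = 9.39e-16). Every gated sum exceeded every other sum. Gna14, a G protein alpha subunit of the Gq family, had the largest fold of the named genes (6.79 ± 0.24 SE), at 127, 87.8, 156, 121 and 101 CPM against 0.607 to 1.67 CPM. Egfr, the epidermal growth factor receptor, was at 260 to 450 CPM against 4.54 to 15.2 CPM (5.17). Igfbp4, an insulin-like growth factor binding protein (5.56), Moxd1, a monooxygenase-like protein (5.39), Mypn, a sarcomeric protein in muscle (5.24), the matrix protease Adamts5 (4.82), the Rab escort protein gene Chml (4.08) and the phosphodiesterase Pde3a (3.59) completed those higher, along with Crhbp and Crhr2 described below. All of these passed the test with the same sign in the 5 libraries. Among the largest falls, Vipr2, a receptor for vasoactive intestinal peptide, had 3 UMIs in all gated nuclei and 16.9 to 28.3 CPM in the other nuclei, and the adenosine receptor gene Adora2a had 4 UMIs against 15.8 to 34.7 CPM. Prkch, a protein kinase C (-3.82), Clic6, an intracellular chloride channel protein (-3.66), the calcium-activated chloride channel Ano2 (-3.64), Sh3rf2 (-3.47), the collagen Col6a1 (-3.40), the thyroid hormone binding protein Crym (-3.27), Gcnt2 (-3.25) and the potassium channel subunit Kcng2 (-3.23) followed.

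**Figure D3:**
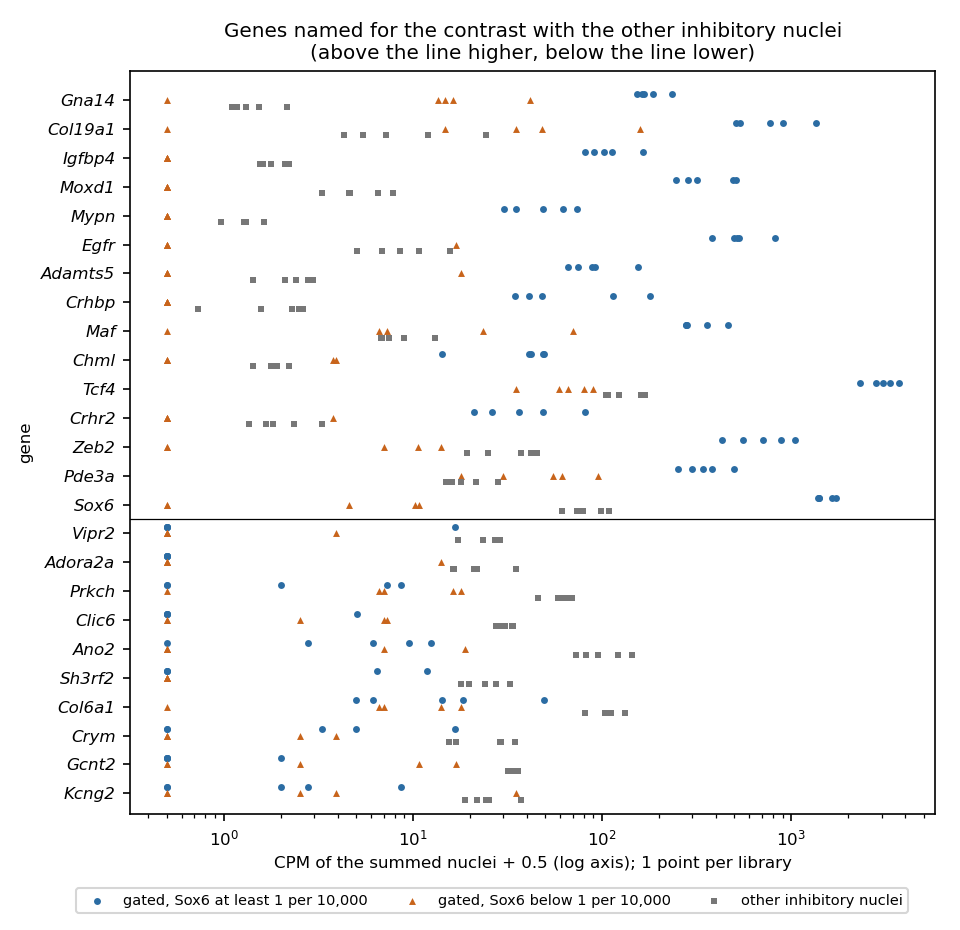
Each row is a gene named for the contrast with the other inhibitory nuclei, and each point 1 library (CPM of the summed nuclei plus 0.5, log axis): circles for gated nuclei with Sox6, triangles for gated nuclei without, squares for the other inhibitory nuclei. Genes above the line were higher and genes below it lower in the gated nuclei; for Sox6, Col19a1 and Egfr the triangles lie nearer the squares than the circles.

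Nuclei without Sox6 showed little of this profile. The mean of the 5 library sums was 1511 CPM for Sox6 in the Sox6-positive and 4.82 CPM in the Sox6-negative nuclei, a difference the split fixed. Erbb4 had 6643 and 569 CPM, Nxph1 5576 and 252 CPM, and Il1rapl2 8766 and 2859 CPM. Igfbp4, Moxd1, Mypn, Crhbp, Pthlh, Prox1, Npy and Cox6a2 had no UMI in the 53 Sox6-negative nuclei. These had instead 970 CPM of Tafa1 against 40.7 CPM, 723 CPM of Meis2 against 131 CPM (563 CPM in glial and 1156 CPM in the other inhibitory nuclei), 36.2 CPM of Isl1 against 1.02 CPM and 63.7 CPM of Tac2, which encodes neurokinin B, against 2.70 CPM. The opioid receptor Oprm1 (129 and 27.4 CPM) and the serotonin receptor Htr1b (17.6 and 0.757 CPM) were likewise more abundant in the Sox6-negative nuclei. Fitted on the Sox6-positive nuclei alone, 1148 genes were higher and 1638 lower. The 858 genes higher in both fits were 82.9% of the first list and 74.7% of the second, and the 1133 lower in both were 86.4% and 69.2%.

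Genes of CeA and striatal projection neurons were mostly low in the gated nuclei. Of 26 genes listed and tested, 17 were lower and 2 higher (median log2 fold change -1.36). Prkcd, which marks neurons of the lateral CeA, was at 11.04, 3.03 and 10.9 CPM in fed and 8.67 and 10.4 CPM in fasted libraries. In the other inhibitory nuclei it was at 97.4, 79.4, 98.2, 76.3 and 66.7 CPM (-3.18 ± 0.21 SE, adjusted p = 1.65e-10). No library of the 2 sets overlapped. The dopamine receptor Drd2 (-2.54), the homeobox gene Six3 (-2.57), the receptor gene Calcrl (-2.39), the peptide gene Nts (-2.13), Ppp1r1b, which encodes the dopamine signalling protein DARPP-32 (-1.89), Foxp2 (-1.69) and Penk, which encodes enkephalins (-1.58), fell as well. Meis2 was lower at -1.90, although fed library 1 (574 CPM) and fed library 3 (486 CPM) held more than fed library 2 (176 CPM) and the fasted libraries (230 and 247 CPM). The 2 higher genes were Pde10a, a striatal phosphodiesterase (0.55), and Tafa1 (1.42), a secreted chemokine-like protein that the Sox6-negative nuclei carried; in the fit on the Sox6-positive nuclei Tafa1 was lower (-1.56, adjusted p = 7.7e-06). Isl1 (-0.39, adjusted p = 0.406) and Tac2 (0.86, adjusted p = 0.074) did not pass the test.

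Somatostatin did not mark the gated nuclei as a whole. Sst was at 11.04, 34.8 and 2.73 CPM in fed and 134 and 36.4 CPM in fasted libraries, against 20.1, 35.1, 28.5, 48.2 and 45.3 CPM in the other inhibitory nuclei, where CeA Sst neurons are included. The ranges overlapped and the log2 fold change was -0.10 ± 0.29 SE (adjusted p = 0.871). Glial nuclei, which do not make Sst, had 4.60, 24.6, 6.69, 39.8 and 36.3 CPM. At least 1 Sst UMI was present in 31 of the 175 gated nuclei (17.7%), in 18.8% of the other inhibitory and in 8.74% of the glial nuclei. After thinning each nucleus to 4000 UMIs, the share was 7.88% of 165 gated, 9.29% of 5459 other inhibitory and 8.88% of 214 glial nuclei. At this depth the share in gated nuclei was no higher than in glial nuclei, and the part of background RNA in these shares was not tested. Per library the thinned share was 6.25%, 10.7% and 0% in fed and 13.8% and 8.77% in fasted libraries. The 0% in the 35 thinned nuclei of fed library 3 covers detection at this depth only. Without thinning 2 of its 36 nuclei carried a Sst UMI. The mean was 5.65% ± 5.38 (SD, n = 3) in fed and 11.3% ± 3.55 (SD, n = 2) in fasted libraries, a difference of 5.63 percentage points (exact two-sided permutation test, p = 0.4; smallest possible p 0.1). Without thinning the shares were 5.88%, 12.1% and 5.56% in fed and 18.75% and 31.6% in fasted libraries. At these unequal depths the difference was 17.3 percentage points (exact two-sided permutation test, p = 0.1, the smallest possible). The thinned share of the other inhibitory nuclei was 6.47%, 9.44%, 6.64%, 11.3% and 11.6% in the same order.

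A small set of gated nuclei carried more Sst. In 8 nuclei there were at least 3 Sst UMIs, 3 in fed library 2, 1 in fasted library 1 with 26 UMIs, and 4 in fasted library 2. All 8 had Sox6 (1 to 87 UMIs) and Nxph1 (7 to 113 UMIs), and none had a Tafa1 or Meis2 UMI. Crhbp, which encodes a binding protein for corticotropin-releasing hormone, was present in 6 of them, Npy, which encodes neuropeptide Y, in 4 and Chodl, a marker of long-range Sst neurons, in 4, while Nos1 was present in 1. Of the 31 nuclei with any Sst UMI, 21 were Sox6-positive and 10 were not. Npy was detected in 5 of these 31 and in 9 of the 144 nuclei without a Sst UMI, Chodl in 5 and 1, Nos1 in 8 and 34, Crhbp in 12 and 31, Calb1, which encodes calbindin, in 18 and 68, and Lhx6 in 17 and 66. The median depth was 17592 UMIs in nuclei with and 14184 in nuclei without a Sst UMI.

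Parvalbumin was nearly absent. A Pvalb UMI was found in 5 gated nuclei, 2 of fed library 3 and 3 of fasted library 2, with 1 to 6 UMIs each, and in none together with Sst. Only 24 of the 5966 inhibitory nuclei had one, and no glial nucleus of 515 did. The 5 nuclei all had Sox6 (11 to 48 UMIs) and Lhx6 (1 to 3 UMIs). They were of more than 1 kind: 3 had 76 to 160 UMIs of Nxph1 and 114 to 194 of Erbb4, whereas 2 had no Nxph1, 1 Erbb4 UMI and 422 and 411 UMIs of Adarb2, a relative of the RNA-editing enzymes that marks interneurons of the caudal ganglionic eminence. No library held 5 nuclei of each subset, and Sst-positive and Pvalb-positive nuclei were not tested against each other. Genes that accompany fast spiking were nevertheless often higher in the gated nuclei: of 23 genes tested for fast spiking and perineuronal nets, 12 were higher and 2 lower (median 0.57). Among them were Kcnc1 and Kcnc2, the Kv3 channels that repolarise fast spikes (1.11 and 1.00), the sodium channel Scn1a (0.68), Kcnab1 (0.72), Kcna2 (0.57), the complexin Cplx1 (1.24), the synaptotagmin Syt2 (1.91) and the net proteins Hapln1 (3.93), Hapln4 (1.77) and Bcan (1.48). Kcnc1 was at 353, 191, 221, 226 and 177 CPM in the gated and 119, 91.5, 113, 105 and 88.6 CPM in the other nuclei, with no overlap. Vwc2, a secreted modulator of bone morphogenetic protein signalling on the same list, was at 345 to 547 CPM against 73.3 to 87.7 CPM (2.39). Pthlh, which encodes a parathyroid hormone related peptide, was higher (4.02), Syt2 was carried mainly by the Sox6-negative nuclei (44.7 and 6.92 CPM) and was not called in the Sox6-positive fit (0.35, adjusted p = 0.713), and Eya4 (-3.11) and Kcnip2 (-1.68) were lower.

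A list of peptides, enzymes, calcium buffers and other genes that mark interneuron classes was divided, with 3 of 14 tested genes higher and 5 lower. Crhbp was at 77.3, 95.4 and 20.5 CPM in fed and 34.7 and 23.4 CPM in fasted libraries, against 0.233 to 2.12 CPM in the other inhibitory nuclei (4.78 ± 0.47 SE, adjusted p = 5.97e-08). All gated sums were higher, but 1 nucleus of fed library 2 held 49 of the 127 Crhbp UMIs. Pthlh and the calcium buffer Calb1 (1.30) were the other 2 higher, and Pdyn, the dynorphin precursor (-2.60), Nts, Chodl (-1.93), Penk and the substance P receptor Tacr1 (-0.80) were lower. Npy did not pass the test (-0.34, adjusted p = 0.598). Of 8 tested genes of the caudal ganglionic eminence lineage, the homeobox gene Prox1 was higher (2.98, at 11.04 to 53.0 CPM against 4.15 to 7.57 CPM) and Lamp5 lower (-1.26). Adarb2 (-0.05, adjusted p = 0.954) was at 142 to 989 CPM in the gated and 435 to 932 CPM in the other nuclei, and Vip had 1 UMI in all gated nuclei.

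Receptor genes differed from the other inhibitory nuclei in both directions, with 7 of 32 tested peptide, monoamine and opioid receptors higher and 10 lower (median -0.03). Chrm2, the muscarinic receptor that couples to Gi, was at 171, 198, 209, 178 and 249 CPM in the gated and 41.6 to 64.0 CPM in the other nuclei (2.00 ± 0.11 SE, adjusted p = 4.58e-12). Htr2a, the serotonin receptor whose regulatory sequence drives Cre in fed library 3, was at 71.8, 37.9 and 66.9 CPM in fed and 43.4 and 44.1 CPM in fasted libraries. In the other nuclei it was at 7.34 to 17.1 CPM (2.13 ± 0.20 SE, adjusted p = 3.5e-08). Neither range overlapped. Crhr2, a receptor for urocortins, was at 55.2, 27.3, 12.3, 26.0 and 14.7 CPM against 0.854 to 2.82 CPM (3.82), and Htr4 (0.87), Adra1a (0.79), Chrm3 (0.72) and Htr2c (0.66) were higher by less, Chrm3 not in the Sox6-positive fit (0.01, adjusted p = 0.971). Lower receptors were Vipr2, the neurotensin receptors Ntsr2 (-3.15) and Ntsr1 (-1.55), Drd2, Vipr1 (-2.07), Chrm1 (-1.46), the opioid receptors Oprk1 and Oprm1 (-0.72), Cckbr and Tacr1. Of 10 tested receptors for feeding hormones only Igf1r, the insulin-like growth factor receptor, passed the test (0.35). The ghrelin receptor Ghsr had 1 UMI in the gated nuclei and none in the other inhibitory nuclei.

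Synaptic genes were called in both directions. Among 24 tested glutamate receptor genes 5 were higher and 10 lower. Gria4, the AMPA receptor subunit typical of interneurons with fast inputs, was at 2727 to 3440.0 CPM against 962 to 1286 CPM (1.49 ± 0.08 SE, adjusted p = 7.73e-12), and Grin2d (1.34), Grik1 (1.34) and Grin3a (0.97) were among the others that were higher. Grm3 (-0.98), Grm7 (-0.67), Grik5 (-0.54) and Grin2b (-0.46) were among the lower genes, whereas Gria1 and Gria2 did not pass the test (0.20 and -0.12). Of 14 GABA receptor genes 5 were higher, including Gabrb2 (0.39), Gabbr2 (0.33) and Gabra3 (0.32). In the Sox6-positive fit Gabbr2 (0.20, adjusted p = 0.22) and Gabra3 (0.09, adjusted p = 0.702) were not called. The 8 lower GABA receptor genes included Gabrg3 (-0.997), Gabrg1 (-0.92), Gabra5 (-0.75) and Gabra2 (-0.71). Of 4 tested genes of GABA synthesis and transport 1 was higher, and Slc6a11, a GABA transporter of astrocytes, was lower (-0.64). Of 29 synaptic organizers 8 were higher and 8 lower: Cntnap4, a neurexin-like protein of interneuron terminals (2.00), Elfn1, which acts at synapses onto Sst interneurons (1.05), and Slitrk3, an inhibitory organizer (0.98), were higher, and Nlgn1, an excitatory organizer (-0.82), Slitrk2 (-1.26) and Il1rapl1, the paralog of Il1rapl2 (-0.39), were lower. Of 37 potassium, sodium, calcium and HCN channel genes 12 were higher and 11 lower; the calcium channels Cacna1i, Cacna1a and Cacna1g were among those higher and Cacna1e, Cacna1h and Cacna1c among those lower, and in the Sox6-positive fit Cacna1i (0.30) and Cacna1g (-0.17) were not called.

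**Figure D4:**
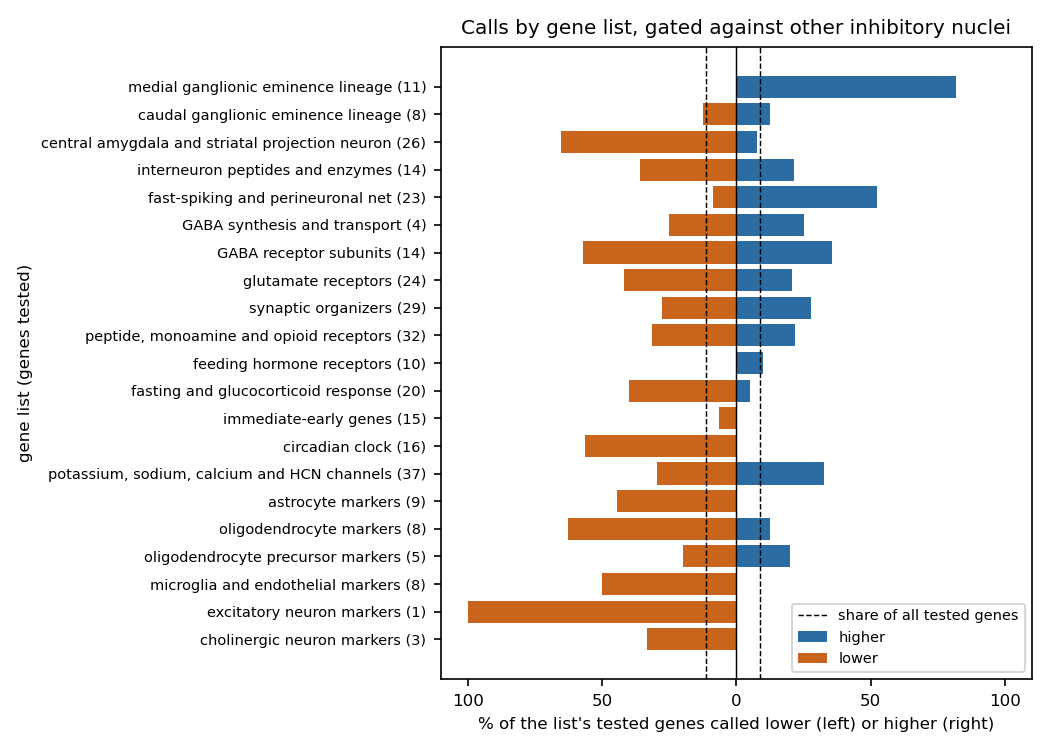
Bars give, for each gene list, the percent of its tested genes called higher (right) or lower (left) in the gated nuclei against the other inhibitory nuclei, with the number tested in parentheses. Dashed lines mark the shares of all tested genes, 8.84% higher and 11.2% lower; lineage genes reach 9 of 11 higher and projection neuron genes 17 of 26 lower.

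Other listed groups were low or at background. Of 16 clock genes 9 were lower and none higher (Npas2 -2.21), of 20 fasting and glucocorticoid response genes 8 were lower and 1 higher, and of 15 immediate-early genes 1 was lower. Among glial markers, 0 of 9 astrocyte, 1 of 8 oligodendrocyte, 1 of 5 precursor and 0 of 8 microglial and endothelial genes were higher. In the same order 4, 5, 1 and 4 were lower, against 8.84% higher and 11.2% lower over all tested genes. The oligodendrocyte marker that was higher, St18, was carried by the Sox6-positive nuclei. The 1 tested excitatory marker, Sv2b, was lower, and 1 of 3 cholinergic markers was lower. Neurod1, Neurod2 and Neurod6, which define glutamatergic neurons of the pallium, had no UMI in any gated nucleus.

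Within the 122 Sox6-positive nuclei markers overlapped only in part. Col19a1 was detected in 96, Chrm2 in 85, Egfr in 84, Kit, which encodes a receptor tyrosine kinase, in 81 and Lhx6 in 80. Col19a1 and Egfr were found together in 78 nuclei and neither in 20. Sst was detected in 12 of the 96 nuclei with Col19a1 and in 9 of the 26 without, and Adarb2 in 32 and 13. Crhbp was detected in 43 nuclei, 29 of which carried Calb1 and 12 Sst. Detection depends on depth (median 12657 UMIs in these nuclei), so these counts are a description of the nuclei with no test.

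The second comparison was with 69 Il1rapl2/Tafa1 nuclei, inhibitory nuclei with less Il1rapl2 (3 to under 15 p10k, Tafa1 at least 5 p10k, no UMI of the gate's 3 other genes), at 17, 11 and 9 nuclei in the fed and 16 and 16 in the fasted libraries. With Tafa1 also left out, 300 of 4186 tested genes were higher (7.17%) and 274 lower (6.55%). Of 5 tested lineage genes, 4 were higher and Satb1 was lower (-1.36). Sox6 had 8 UMIs and Col19a1 4 UMIs in all the Il1rapl2/Tafa1 nuclei (6.89 and 7.04), and Zfp536, a zinc finger repressor, had 12 (6.08). Egfr, Moxd1, Gna14, Kit and Ccbe1 had 1 UMI each there and passed the test with totals in the gated nuclei of 989 for Egfr and 613 for Moxd1; a fold against 1 UMI depends on the fit and is not given. Isl1, a LIM homeobox gene of striatal-like neurons, was at 85.8, 68.6, 96.7, 43.9 and 74.9 CPM in the Il1rapl2/Tafa1 nuclei and at 0, 16.7, 13.6, 26.0 and 9.52 CPM in the gated nuclei (-2.50 ± 0.36 SE, adjusted p = 0.000134). The 2 sets of sums did not overlap. Khdrbs2, an RNA-binding splicing regulator (-2.05), Ccnd3, a cyclin (-2.55), Pard3b (-2.20), Lmo7 (-2.11), the retinoid receptor Rxrg (-2.01) and the sulfotransferase Hs3st5 (-1.82) were lower too. Meis2 (0.03, adjusted p = 0.99) and Adarb2 (0.34, adjusted p = 0.684) did not pass the test. Fast-spiking and net genes were higher in 7 of 11, glutamate receptors in 4 of 22 with 6 lower, synaptic organizers in 5 of 20 with 5 lower, and potassium, sodium, calcium and HCN channels in 3 of 32 with 9 lower, of which 4 were calcium channels. With the Sox6-positive nuclei alone 465 genes were higher and 489 lower.

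No gene of the gated nuclei passed an adjusted p of 0.05 between fasted and fed libraries. Of 7837 genes tested over the 3 fed and 2 fasted libraries, 0% were called in either direction by edgeR's quasi-likelihood test, and DESeq2 called none, while the likelihood ratio test of edgeR called 11 higher and 1 lower. At an unadjusted p of 0.05, 156 genes were higher and 108 lower in fasted libraries. Both fasted sums were above all 3 fed sums for 800 genes (10.2%) and below them for 577 (7.36%). With the preparation pairs as a replicate block, 24 genes were called higher and 5 lower in fasted libraries. Fed library 3 had no fasted partner, so the folds of this fit rest on the differences within the pairs. The quasi-likelihood test without the block and DESeq2 called no member of the gene lists, whereas the likelihood ratio test called Mt1 (adjusted p = 1.64e-07) and Adra1b (adjusted p = 0.00506). With the block 8 members were called, which are among the genes given below. Over all 7837 genes the block called 29, and whether list members were called more often was not tested. Sst had a log2 fold change of 1.95 (unadjusted p = 0.00791) with both fasted values above the fed values, and 26 of the 31 Sst UMIs of fasted library 1 came from 1 nucleus. Sst was also higher in both fasted than in all fed libraries in the glial and in the other inhibitory nuclei, by the values given above, and the part of background RNA in the fold was not tested. Fkbp5 (0.73) and Zbtb16 (0.68), which glucocorticoids induce, were at 27.6, 86.3 and 49.1 CPM and 144, 262 and 157 CPM in fed libraries. In fasted libraries Fkbp5 was at 78.1 and 114 CPM, overlapping the fed values, and Zbtb16 at 343 and 297 CPM, above them. Neither passed the adjustment. Of the 14 tested fasting and glucocorticoid response genes 10 had a positive fold, with a median of 0.08 against -0.003 over all tested genes. Both fasted sums were above all fed sums for 2 of the 14, Zbtb16 and Mt1, beside 10.2% of all tested genes.

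The 10 genes with the smallest p were led by a secreted enzyme, metal-binding proteins and ribosomal proteins. Ptgds, the prostaglandin D synthase secreted by oligodendrocytes and meninges, was at 5.52, 1.51 and 5.46 CPM in fed and 34.7 and 44.1 CPM in fasted libraries (3.34 ± 0.55 SE, adjusted p = 0.0692). Mt1, a metallothionein, was at 22.1, 3.03 and 0 CPM in fed and 52.0 and 54.5 CPM in fasted libraries (3.66, adjusted p = 0.0692). Fth1, the ferritin heavy chain, was at 77.3, 7.57 and 13.6 CPM in fed and 99.7 and 147 CPM in fasted libraries (2.66, adjusted p = 0.0692). In each, both fasted sums were above the fed sums. The ribosomal protein genes Rpl35a (2.60), Rps29 (2.42), Rpl37 (1.82) and Rpsa (1.41), the lipid carrier Apoe (1.69) and the adrenergic receptor Adra1b (2.84) were positive and the phospholipase Plch1 (-2.94) negative, at adjusted p from 0.0692 to 0.446. Of 68 tested ribosomal protein genes 59 had a positive fold (median 0.88), and both fasted sums were above the fed sums in 31. Over all 7837 tested genes the median fold was -0.003, and both fasted sums were above the fed sums in 800 (10.2%). Ribosomal protein, ferritin and metallothionein genes have near-identical copies, between which the reads may be split, so their single values are uncertain.

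Ptgds, Mt1 and Fth1 were also more abundant in both fasted libraries in the other inhibitory nuclei. In the other inhibitory nuclei Ptgds was at 4.43, 9.25 and 6.33 CPM in fed and 34.5 and 99.9 CPM in fasted libraries, Mt1 at 25.0, 8.04 and 14.7 and at 64.5 and 77.8 CPM, and Fth1 at 56.1, 14.9 and 28.9 and at 138 and 155 CPM. Summed ribosomal protein genes were at 2523, 1737 and 1645 CPM in fed and 2888 and 2897 CPM in fasted gated nuclei, and at 2722, 2075, 2331, 3643 and 3450 CPM in the other inhibitory nuclei. Ptgds in glial nuclei was at 124, 426 and 66.9 CPM in fed and 248 and 748 CPM in fasted libraries. The 10 astrocyte markers summed to 458, 312 and 334 CPM in fed and 429 and 647 CPM in fasted gated nuclei, with Gpc5 the most abundant and Gfap at 0. The 9 oligodendrocyte markers (St18 the most abundant) summed to 215, 189, 201, 317 and 264 CPM and the 10 microglial and endothelial markers (Cst3 the most abundant, Cldn5 at 0) to 155, 65.1, 68.2, 173 and 175 CPM. The part of background RNA in these folds was not tested. A single nucleus of fasted library 2, called a doublet, held 51 Fth1, 20 Mt1, 16 Rpl35a and 39 Rps29 UMIs. It also held 38 Rpl37, 22 Rpsa, 27 Apoe and 50 Cst3 UMIs. Without it the folds were 2.31 for Fth1, 3.30 for Mt1 and 3.24 for Ptgds (quasi-likelihood test, adjusted p = 0.638, 0.638 and 0.153). Rpl35a was then at 2.26 and Rps29 at 2.02 (adjusted p = 0.689 for each). Rpl37 was at 1.32, Rpsa at 1.15 and Apoe at 1.25 (adjusted p = 0.9997 for each). Adra1b was at 5.52, 3.03 and 2.73 CPM in fed and 21.7 and 26.0 CPM in fasted gated nuclei but 6.64, 7.44, 7.98, 6.78 and 6.09 CPM in the other nuclei (adjusted p = 0.386; difference of the fasting effects 3.21, adjusted p = 0.113). Plch1 was at 5.52, 30.3 and 38.2 CPM in fed and 8.67 and 2.60 CPM in fasted libraries, and the groups overlapped.

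**Figure D5:**
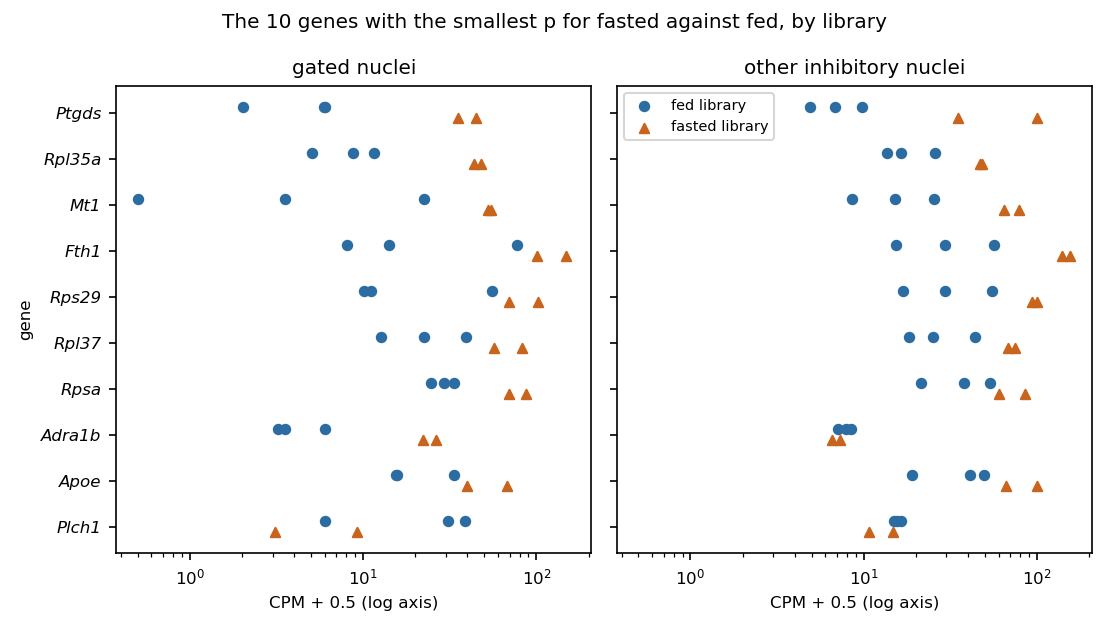
Rows are the 10 genes with the smallest p for fasted against fed, none of which passed the adjustment, and each point is 1 library (CPM plus 0.5, log axis), with circles for fed and triangles for fasted libraries. The left panel shows the gated nuclei and the right panel the other inhibitory nuclei; for Ptgds, Mt1 and Fth1 the fasted libraries lie above the fed libraries in both panels, and for Adra1b they do so in the left panel and overlap in the right.

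The replicate block moved other genes past the threshold. Of the 29 calls, Adarb2 (1.56, adjusted p = 6.27e-08), Pbx3 (1.68) and Reln, the extracellular matrix protein reelin (2.05), were higher in fasted libraries. Ebf1 (-1.52), Crhbp (-1.82), Gabrg1 (-1.32), Svil (-2.78) and Col25a1 (-0.93) were lower. Fth1, Ptgds, Mt1, Rps29, Rpl35a and Rpl37 were also called higher, with the mitochondrial genes mt-Co1 (1.13), mt-Cytb (1.05) and mt-Atp6 (0.90). Nuclei were selected for a low mitochondrial share, which limits the values of these mitochondrial genes, so their calls are descriptive. The lineage gene Satb1 (1.46), Cst3, a cystatin of microglia and other cells (1.56), and Glul, the glutamine synthetase of astrocytes (3.48), were higher too, as were Tmem163 (4.18), Tcf7l2 (3.35), Fign (3.27), Sntb1 (1.83), Maml2 (1.34), Zfhx4 (1.24), Zfp804b (1.18) and Cacna2d3 (1.01). Without the nucleus of fasted library 2 with the most Fth1 UMIs, 23 of the 29 were called, and Rpl35a (adjusted p = 0.0952), Rpl37 (adjusted p = 0.258), Cst3, Tmem163, Tcf7l2 and Fign were not. Adarb2 was at 464, 142 and 988 CPM in fed and 989 and 589 CPM in fasted libraries, so the groups overlapped, and within each pair the fasted library was higher. Single nuclei held 73 of 84, 59 of 94 and 422 of 724 of its UMIs in fed and 155 of 228 and 411 of 681 in fasted libraries. Without that nucleus fasted library 1 was at 338 CPM, below fed library 1, and without its own top nucleus fed library 1 was at 80.1 CPM, so that with both left out the fasted library was again higher. For 8 of the 29 genes, Adarb2, Crhbp and Ebf1 among them, leaving out 1 nucleus turned the direction within a pair, and for 3, among them Ebf1 and Col25a1, the pairs went in opposite directions. In the block fit on the Sox6-positive nuclei, 9 of the 29 were called, Col25a1 among them with the opposite sign. Fign, Glul, Reln, Tcf7l2 and Tmem163 were not tested there. There Adarb2 was at 4.94 (adjusted p = 2.4e-12) with the block and 0.07 (adjusted p = 0.9997) without it. Its UMIs in these nuclei numbered 1, 8 and 544 in fed and 16 and 527 in fasted libraries, and 1 nucleus held 422 of those in fed library 3 and another 411 of those in fasted library 2. With the block, Col25a1 turned to 1.95 and was called, Ebf1 turned to 1.87 (adjusted p = 0.282), and Gabrg1 was at -0.46 (adjusted p = 0.999).

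Whether fasting moved the gated nuclei differently from the other inhibitory nuclei was tested as an interaction over 12511 genes, and 1 gene was called in each direction (0.00799% each, 0.016% in all). Ebf1, a helix-loop-helix factor of striatal and CeA neurons, was at 27.6, 351 and 244 CPM in fed and 60.7 and 88.3 CPM in fasted gated nuclei, and at 225, 289, 260, 270 and 287 CPM in the other nuclei (difference of the fasting effects -1.56 ± 0.31 SE, adjusted p = 0.0207). The call was lost by DESeq2, at Il1rapl2 of 10 p10k, without doublets and without fed library 2. Fed libraries 2 and 3 were high, and fed library 1 was below both fasted libraries. These UMIs were mostly in Sox6-negative nuclei, at 742 and 511 CPM in fed libraries 2 and 3, and in the Sox6-positive nuclei the difference was 0.52 (adjusted p = 1). Slc5a4b, a sugar transporter of the sodium-glucose family, was called on 51 UMIs that all lay in 1 nucleus of fasted library 2, and was not called by DESeq2.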

How the data were processed

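Droplet libraries of nuclei (10x Genomics 3′ kit) were mapped by the authors to GRCm39 extended by Cre and mCherry, introns included, and the deposited matrices hold their raw UMI counts per gene and barcode. Per the file headers Cell Ranger 5.0.0 was used, as in the study's methods, whereas the submitters' processing notes name Cell Ranger 2.1.1 and mm10; all 5 matrices carried both added genes. Coordinates are those of the GRCm39 annotation for the gene IDs of the files.

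The gated nuclei were selected as described, and UMI counts were summed per library and population. The sums were tested with edgeR 4.0.16 (TMM, filterByExpr, quasi-likelihood test, Benjamini-Hochberg adjusted p under 0.05) in R 4.3.3. Gate genes (with Slc17a7, Gad1 and Gad2) stayed in library sizes and out of the tests. Mitochondrial genes, whose share bounded the nuclei, were not left out of the tests. Contrasts between populations had the library as a block, and the fasting contrast had none. The study's methods name edgeR on such sums, with its likelihood ratio test, and give no block. Alternatives included DESeq2 1.42.0, the likelihood ratio test, RLE scaling, no low-count filter, Il1rapl2 at 10 or 20 p10k, only nuclei of 4000 UMIs or more, removal of doublets and leaving out each library. Doublets were kept in the main fits. Scrublet in scanpy 1.11.5 marked 70 of 7161 nuclei and 3 gated nuclei, and it marked only 0.176% in fasted library 1, where it may not have worked. A supplementary legend of the study gives 2 preparation pairs of fed and fasted libraries and a further fed library, numbered from 0. That its numbers 1 and 2 are replicates 1 and 2 of the labels, and 0 the Htr2a-Cre library, was assumed here. Deviations of same-numbered libraries from the group means correlated at 0.108 and 0.134 in the gated and 0.491 and 0.713 in the other inhibitory nuclei (7843 genes). The deviations of the 2 fasted libraries mirror each other, so the 2 correlations of a population are not independent. Libraries 1 of both states were also the shallowest, so these values cannot check the assumed numbering. Shares were thinned to 4000 UMIs.

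The members, the 22 gene lists (356 genes, 2 not in the files) and the tests were chosen with earlier results of these data known. The Sox6 bound, the fit without the nucleus with the most Fth1 UMIs and the values without the top nucleus of a library were chosen after seeing the gated nuclei. Genes were named from the lists and, among those past the threshold with 1 sign in all 5 libraries and at least 20 CPM in the higher population, as the 15 largest rises and 10 largest falls against the other inhibitory nuclei and 8 of each against the Il1rapl2/Tafa1 nuclei. For fasting they were the 10 of smallest p, and for the interaction and the block those called, apart from any not reported. Unnamed gene models were left out of the naming, and some genes that are counted in the totals are not reported here by name. The Python version was 3.11.15 and scipy was 1.17.1. Scripts were tested on simulated data.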

Additional observations from a re-analysis of the deposited data

Results flagged for a closer look

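The fasting effect on Ebf1 differed between the gated and the other inhibitory nuclei by -1.56 on the log2 scale (edgeR interaction test, adjusted p = 0.0207), a call lost by DESeq2, at Il1rapl2 of 10 p10k, without doublets and without fed library 2. Its sums in the Sox6-negative nuclei were 52.1, 742 and 511 CPM in fed and 47.5 and 138 CPM in fasted libraries, from 3, 11, 13, 6 and 20 nuclei, and in the Sox6-positive nuclei 16.2, 14.1, 66.1, 65.7 and 51.2 CPM. The part of the mixture of nuclei in this difference was not tested.

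The fasting effect on Slc5a4b differed by 11.54 (adjusted p = 0.0207). All 51 of its UMIs in gated nuclei were in 1 nucleus and the other 4 libraries had none, so the fitted value is not a bound.

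mCherry, which the comparisons did not use, was present with at least 1 UMI in 15 of the 36 gated nuclei of fed library 3 (41.7%), the library of Htr2a-Cre mice. It was present in 31.8% of 1267 other inhibitory and 8.33% of 60 glial nuclei of that library. After thinning to 4000 UMIs the shares were 22.9%, 20.6% and 9.09%. By Sox6 it was found in 7 of 23 positive (30.4%) and 8 of 13 negative nuclei (61.5%). Thinned, these were 2 of 22 (9.09%), equal to the glial share, and 6 of 13 (46.2%). The study describes the virus for this library alone, and the gated nuclei of the other 4 libraries held no mCherry UMI.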

How the results depend on the processing

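For the 25 genes named by size against the other inhibitory nuclei, all 350 values kept their direction and side of the threshold under the alternatives run, as did 217 for the 16 against the Il1rapl2/Tafa1 nuclei, with 1 exception under DESeq2. Of 158 further listed genes called against the other inhibitory nuclei, 110 were called under every alternative; 23 were lost by DESeq2 (Dlx1, Lhx8, Foxp2, Syt2, Igf1r, Gabrb2, Gabra3, Cckbr, Oprk1 and Slc6a11 of those described), 41 without a single library (also Hapln4, Kcna2, Ntsr2, Slitrk2, Gabbr2 and Cacna1g), and 18 were lost or turned in the Sox6-positive nuclei, where Tafa1 was at -1.56, Cacna1g at -0.17 and Vcan at -0.16. Against the Il1rapl2/Tafa1 nuclei 40 of 57 were called under every alternative, and Satb1 was lost without fed replicate 2 or 3. The causes of the changes below were not tested. The difference in the share of gated nuclei turned to -0.219 at Il1rapl2 of 10 p10k and ranged from -0.469 to 0.920 when single libraries were left out. That of the Sst share ranged from 2.80 to 8.16 when single libraries were left out and was 17.3 without thinning. Against the Il1rapl2/Tafa1 nuclei, 498 genes were higher without the low-count filter and 465 in Sox6-positive nuclei, and 157 were lower by DESeq2 and 489 in Sox6-positive nuclei.

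For fasting, calls numbered 11 higher and 1 lower by the likelihood ratio test, 25 and 10 without the filter, 2 and 0 at 10 p10k, and 0 to 8 higher and 0 to 1 lower without single libraries (8 and 1 without fed replicate 1). The replicate block gave 24 higher and 5 lower, 18 and 5 without the nucleus with the most Fth1 UMIs, and 20 and 2 in Sox6-positive nuclei. For the interaction, calls larger and smaller numbered 0 and 0 by DESeq2, 3 and 2 by the likelihood ratio test, 8 and 3 without the filter, 8 and 5 at 20 p10k, 12 and 2 in Sox6-positive nuclei, 2 and 1 with at least 4000 UMIs, 1 and 0 without doublets, and 1 to 9 and 2 to 8 without single libraries. Ebf1 turned to 0.52 in Sox6-positive nuclei and was not called by DESeq2, at 10 p10k, without doublets or without fed replicate 2. Slc5a4b was not called by DESeq2 or without fasted replicate 2. Tests of Sst-positive against Pvalb-positive nuclei, and their alternatives, were not run. The gated nuclei of fed library 1 had the smallest sum, 181107 UMIs over 17 nuclei, those of fasted library 1 the lowest median depth, 6153 UMIs, and the fasted state had 2 libraries.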
